A study of Mus musculus with 6 samples.

Results

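The genes described here were 10 members of the Rgs family (regulators of G-protein signalling), Rgs2, Rgs3, Rgs4, Rgs5, Rgs10, Rgs12, Rgs14, Rgs16, Rgs17 and Rgs19, out of 49452 genes measured in mouse limb bud ectoderm. They were taken by symbol, and each symbol matched 1 gene. The list was chosen by the FPKM values of Rgs5, already known to be among the largest falls between the genotypes compared here, so the values of all 10 genes in that comparison are given as a description, without p-values. Heterotrimeric G proteins relay signals from receptors of the cell surface: a receptor loads GTP onto the alpha subunit, and the alpha subunit and the freed beta-gamma dimer then act on enzymes such as adenylyl cyclase and phospholipase C beta. Rgs proteins end the signal by speeding the hydrolysis of that GTP. Rgs5 is best known from pericytes and smooth muscle of blood vessels, and Rgs4 lies next to it in the genome.

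RNA was sequenced from 6 libraries of forelimb bud ectoderm at E10.5, the stage at which the apical ectodermal ridge at the rim of the bud secretes fibroblast growth factors. One group held 3 wild-type (WT) embryos, whose parents were C57BL/6 inbred mice. The other held 3 embryos labelled Sp8 KO, here called Sp8 null, whose parents were both Sp8+/- and carried the allele named Sp8-Cre-ERT2. All 6 samples were labelled with the background strain C57BL6J, and each library held the ectoderm of both forelimbs of 1 embryo, lifted off with forceps after digestion in 0.25% trypsin for 20 min. Because the genotypes came from different crosses, the loss of Sp8 (which encodes a DNA-binding protein of the Sp zinc finger family) and any other difference between the crosses cannot be told apart.

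The values were FPKM, a fragment count divided by transcript length and by the size of the library, so that levels can be compared between genes. Read totals are not part of FPKM, and the sum of FPKM over all genes, 845961 to 12061400 per library, is not a depth. The ratios of values up to 0.1 FPKM between libraries gave depths from 0.842 to 1.03 relative to WT embryo 1, and 11835 to 12245 genes per library were at 1 FPKM or more. Sp8 was between 0.46 and 1.14 FPKM in the null libraries and between 8.35 and 13.5 FPKM in WT, so each library followed its label. The summed FPKM of 11 markers of limb ectoderm, such as Trp63, Krt5 and Cdh1, was 510 to 610 in the null and 582 to 622 in WT. Of the 11, Epcam fell (a log2 difference of -0.53; limma adjusted p = 0.0313), Tfap2a rose (0.52; limma adjusted p = 0.0163) and the other 9 did not pass. Epcam moved with Rgs5, and its part was not tested. The 8 markers of the apical ridge, among them Fgf8, Fgf4 and Sp8 itself, summed to 22.7 to 30.3 FPKM in the null and 174 to 181 FPKM in WT, and all 8 fell (limma, adjusted p under 0.05). They moved with Rgs5, and their part in its difference was not tested. In bulk RNA, fewer cells of a type and less RNA per cell cannot be told apart, and this holds for every difference given here.

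The 3 Rgs genes whose null libraries all lay below all WT libraries were Rgs5, Rgs4 and Rgs2, and their upstream sequences are shown first for that reason. All 3 genes are on chromosome 1 of GRCm38. Rgs5 (ENSMUSG00000026678, protein-coding) spans 169655501 to 169695813 on the plus strand. Rgs4 (ENSMUSG00000038530, protein-coding) spans 169741477 to 169747642 on the minus strand, so both genes point towards each other and their ends are 45.7 kb apart. Rgs2 (ENSMUSG00000026360, protein-coding) spans 143999338 to 144004161 on the minus strand. Each line holds the 250 bases before the annotated start, 5′ to 3′ on the strand of the gene, from the RefSeq promoter table of GRCm38. Capitals mark matches on either strand to 5 motifs. The GC box was searched as GGGCGG, letters of the kind that Sp zinc fingers bind. The box named for its letters CACCC was searched as CCACCC. The CCAAT box was searched by its name. The core promoter element known as the TATA box was searched as TATAAA. The site typical of homeodomain proteins was searched as TAATTA.
Rgs5, chr1:169655251-169655500, plus strand: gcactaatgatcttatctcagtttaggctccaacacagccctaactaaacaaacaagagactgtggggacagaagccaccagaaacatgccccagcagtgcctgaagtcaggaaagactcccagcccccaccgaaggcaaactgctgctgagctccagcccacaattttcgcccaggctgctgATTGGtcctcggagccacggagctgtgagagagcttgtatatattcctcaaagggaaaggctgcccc
Rgs4, chr1:169747643-169747892, minus strand: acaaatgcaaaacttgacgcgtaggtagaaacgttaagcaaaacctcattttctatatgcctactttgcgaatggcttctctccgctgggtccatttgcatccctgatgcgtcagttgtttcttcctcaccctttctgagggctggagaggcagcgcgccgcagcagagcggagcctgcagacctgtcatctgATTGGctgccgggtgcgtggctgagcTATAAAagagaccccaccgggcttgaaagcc
Rgs2, chr1:144004150-144004399, minus strand: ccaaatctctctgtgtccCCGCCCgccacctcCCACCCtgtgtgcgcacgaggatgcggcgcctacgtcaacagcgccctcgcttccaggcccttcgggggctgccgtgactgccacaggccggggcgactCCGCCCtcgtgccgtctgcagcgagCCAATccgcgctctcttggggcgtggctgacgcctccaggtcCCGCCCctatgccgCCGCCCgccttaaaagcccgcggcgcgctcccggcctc

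In the Rgs5 window the only match was a CCAAT box on the other strand, whose first base was 67 bases before the start. The Rgs4 window held a CCAAT box at 57 bases, also on the other strand, and a TATA box at 31 bases before the start. The Rgs2 window held 4 GC boxes, a CACCC box at 218 bases and a CCAAT box at 94 bases. No base of these 3 windows was in more than 1 match. The share of G and C was 53.6% for Rgs5 and for Rgs4, 72.4% for Rgs2 and 52.4% at the median of 32851 windows of the same length. In those windows the share with a match was 32.7% for the GC box, 28.1% for the CACCC box, 33.8% for the CCAAT box, 12.4% for the TATA box and 4.84% for the homeodomain site. The table held 13 starts for 9 of the 10 genes (none for Rgs14), and 9 of these 13 windows had a GC box. A match is a run of letters and not a binding site, and the absence of a match says only that these letters are not in this window.

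Rgs5 was lower in every Sp8 null library than in any WT library. It was at 10.0, 11.3 and 12.7 FPKM in WT embryos 1, 2 and 3 and at 0.521, 0.327 and 0.482 FPKM in null embryos 1, 2 and 3. The groups did not overlap, and all 3 libraries of each group lay together. The means were 11.3 ± 1.34 FPKM (SD, n = 3) in WT and 0.443 ± 0.103 FPKM (SD, n = 3) in the null, a ratio of 25.5. On the scale of log2(FPKM + 1), which understates changes of low values, the difference was -3.09 (SE 0.12 in limma), the 10th largest fall among 12133 tested genes. Across 13 other ways of processing, it was between -4.41 and -3.01. The value of -4.41 came from a pseudocount of 0.1, which is another scale. With FPKM + 1 the difference was between -3.17 and -3.01. Since the list was chosen by this difference, the range is not support for it. The authors' deposited table gave Rgs5 means of 1796.51 in WT and 72.06 in the null on its normalized signal scale. The fold change for Rgs5 in the authors' deposited table was -13.17, where the minus sign marks a lower level in the null. The ratio of the means in the authors' deposited table was 24.9.

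The summed level of the family was lower in the null, and Rgs5 made up most of the gap. The 10 genes together summed to 46.3, 45.3 and 43.5 FPKM in WT embryos 1 to 3 and to 35.6, 30.7 and 33.0 FPKM in null embryos 1 to 3. Rgs5 made up 21.6%, 24.9% and 29.2% of that sum in the WT libraries and 1.46%, 1.07% and 1.46% in the null libraries. Without Rgs5 the other 9 genes summed to 33.7 ± 2.75 FPKM in WT and 32.7 ± 2.39 FPKM in the null (SD, n = 3 each), a difference smaller than the spread between embryos.

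**Figure D1:**
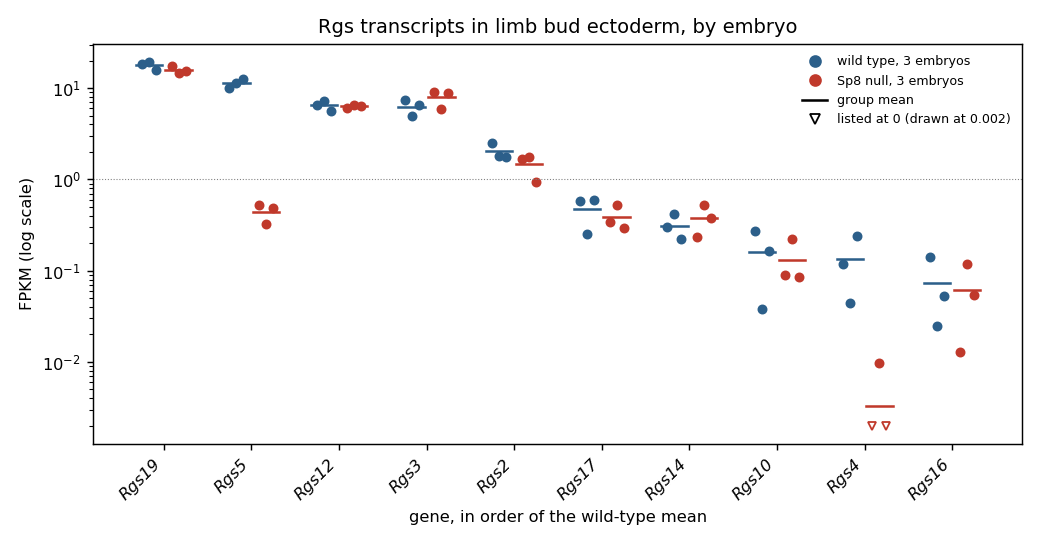
FPKM of the 10 Rgs genes on a log scale, ordered by the wild-type mean; dots are single embryos (blue wild type, red Sp8 null), lines are group means, open triangles are values listed at 0 and the dotted line is 1 FPKM. Rgs5 stands between 10.0 and 12.7 FPKM in wild type and between 0.327 and 0.521 FPKM in Sp8 null, while the groups of Rgs19, Rgs12 and Rgs3 overlap.

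The other genes of the same subfamily, R4, are small proteins with little beyond the RGS domain, apart from the longer Rgs3. Rgs4, a regulator best known from neurons, was at 0.119, 0.0441 and 0.238 FPKM in WT embryos 1 to 3. In the null it was listed at 0, 0.00975 and 0 FPKM, below every WT value. No fold is given for Rgs4, since 2 null libraries were at 0 and all values were far under 1 FPKM. The authors' deposited table listed Rgs4 means of 13.9 in WT and 0.31 in the null, and a fold change of -1.7. Rgs5 and Rgs4, the convergent neighbours, were thus both lower in all null libraries, with Rgs4 far below Rgs5 in each WT library.

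Rgs2, which acts on alpha subunits of the Gq class, was at 2.53, 1.83 and 1.78 FPKM in WT embryos 1 to 3 and at 1.67, 1.77 and 0.933 FPKM in null embryos 1 to 3. The groups did not overlap, but the highest null value (1.77) and the lowest WT value (1.78) were nearly the same. The log2 difference was -0.32 (SE 0.17). Rgs3 (ENSMUSG00000059810, chromosome 4, 62559847 to 62704001, plus strand) was at 7.45, 4.92 and 6.50 FPKM in WT and at 9.03, 5.92 and 8.91 FPKM in the null, with overlapping groups and a log2 difference of 0.29 (SE 0.18). Rgs16 (ENSMUSG00000026475, chromosome 1, 153740349 to 153745468, plus strand) was at 0.0245 to 0.142 FPKM in WT and 0.0130 to 0.119 FPKM in the null, and the groups overlapped.

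The RZ subfamily, which acts on Gi-class and Gz alpha subunits, included the most abundant gene of the list. Rgs19, also known as GAIP (ENSMUSG00000002458, chromosome 2, 181688419 to 181693977, minus strand), was at 18.4, 19.3 and 15.6 FPKM in WT embryos 1 to 3 and at 17.7, 14.8 and 15.5 FPKM in null embryos 1 to 3. Its groups overlapped, with a log2 difference of -0.14 (SE 0.10). Rgs17 (ENSMUSG00000019775, chromosome 10, 5825663 to 5922400, minus strand) was low, at 0.574, 0.250 and 0.592 FPKM in WT and 0.341, 0.525 and 0.297 FPKM in the null, and its groups overlapped too.

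In the R12 subfamily, Rgs12 and Rgs14 are long proteins that also bind Ras-like GTPases and inactive Gi alpha subunits, and Rgs10 is short. Rgs12 (ENSMUSG00000029101, chromosome 5, 34949445 to 35039644, plus strand) was at 6.51, 7.24 and 5.63 FPKM in WT and at 6.06, 6.48 and 6.44 FPKM in the null. Its log2 difference was -0.02 (SE 0.10), and the sign turned with the scaling between libraries (0.04 and 0.06) and without null embryo 1 or WT embryo 2. An annotated gene on the opposite strand, Gm43791, overlaps exons of Rgs12, and Gm28513 overlaps those of Rgs16, so their reads cannot be told apart without strand, whose use in counting is not given in the sources used here. Rgs14 (ENSMUSG00000052087, chromosome 13, 55369732 to 55384687, plus strand) was at 0.220 to 0.413 FPKM in WT and 0.236 to 0.520 FPKM in the null. Rgs10 (ENSMUSG00000030844, chromosome 7, 128373621 to 128418758, minus strand) was at 0.0385 to 0.275 FPKM in WT and 0.0848 to 0.220 FPKM in the null, and the groups overlapped for both.

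Of the 10 genes, 5 reached 1 FPKM in at least 3 libraries, the filter for a test, and 5 (Rgs4, Rgs10, Rgs14, Rgs16 and Rgs17) did not. Rgs5 passed this filter only through the WT libraries. Genes with a Benjamini-Hochberg adjusted p under 0.05 in the limma fit over all genes are named called here. Of the 5, the 1 called was Rgs5, which the choice of the list had fixed, against 6.83% of the 12133 genes in either direction, 5.15% in the lower and 1.68% in the higher direction. The 829 calls were 204 higher and 625 lower, and another scaling between libraries moved that split to 323 and 545 (median of ratios) or 363 and 507 (upper quartile). The median log2 fold change was -0.14 for the 5 genes and -0.06 for all tested genes. Groups did not overlap for 3 of the 10 genes (Rgs2, Rgs4 and Rgs5, all lower in the null), against 19.3% of the 27766 genes with any value above 0 and 29.8% of the tested genes. Nothing is read from these counts, since the genes were chosen with this comparison known.

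Without Rgs5, the order of the levels differed between genotypes only in 2 pairs of neighbours, Rgs12 with Rgs3 and Rgs4 with Rgs16. In WT the means ran from Rgs19 (17.7 FPKM) through Rgs5 (11.3), Rgs12 (6.46), Rgs3 (6.29) and Rgs2 (2.05) to Rgs17 (0.472), Rgs14 (0.310), Rgs10 (0.160), Rgs4 (0.134) and Rgs16 (0.0731). The ranges of Rgs19 and Rgs5 did not overlap, nor did those of Rgs5 and Rgs12, of Rgs3 and Rgs2, or of Rgs2 and Rgs17. Rgs12 and Rgs3 overlapped, and so did each pair of neighbours from Rgs17 down. In the null Rgs5 took the fifth place, at a level whose range overlapped that of Rgs17 (0.297 to 0.525 FPKM), and Rgs4 the last. Rgs3 (7.95 FPKM) stood before Rgs12 (6.33 FPKM) there, with overlapping ranges, and Rgs16 (0.0619 FPKM) before Rgs4.

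The spread between embryos was narrow for Rgs19 and Rgs12 and widest for Rgs4, Rgs10 and Rgs16. It did not follow the level in every gene. Rgs3, whose range overlapped that of Rgs12, had a coefficient of variation of 20.3% in WT and 22.2% in the null. In WT the coefficient of variation was 11.8% for Rgs5, 10.7% for Rgs19 and 12.4% for Rgs12, against 74.1% for Rgs10 and 83.9% for Rgs16. In the null it was 23.2% for Rgs5, 9.47% for Rgs19 and 3.70% for Rgs12.

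The tested genes whose profile lay nearest to that of Rgs5 over the 6 libraries were Sorbs2, Fgf4, Itga4, Slc16a10 and Vwde. Likeness was the root mean square distance between log2(FPKM + 1) values after subtracting the mean of each gene, and was 0.079 for Sorbs2, 0.182 for Fgf4, 0.184 for Itga4, 0.214 for Slc16a10 and 0.223 for Vwde, against a median of 1.53 over 12132 genes. Sorbs2, an actin-binding adaptor of cell junctions, was at 24.7, 28.1 and 28.2 FPKM in WT embryos 1 to 3 and 2.55, 2.34 and 2.71 FPKM in null embryos 1 to 3. Fgf4, a fibroblast growth factor of the apical ridge, was at 8.90, 9.73 and 12.1 FPKM in WT and at most 0.0589 FPKM in the null. Itga4, an integrin alpha subunit, was at 9.87 ± 1.06 FPKM in WT and 0.516 ± 0.0700 FPKM in the null (SD, n = 3 each). These genes, like Rgs5, had no overlap between groups, which follows from their choice by likeness to Rgs5. Fgf4, Itga4 and Vwde passed the filter only through the WT libraries. Slc16a10, a carrier of aromatic amino acids, was at 13.6 to 15.3 FPKM in WT and 1.09 to 1.51 FPKM in the null. Vwde was at 10.6 to 12.0 FPKM in WT and 0.0597 to 0.164 FPKM in the null. Pearson's r with Rgs5 was 0.995 to 0.999 for these genes. With 2 groups of 3 libraries, such values follow from any large difference between the groups, and 51 genes had an r over 0.99.

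**Figure D2:**
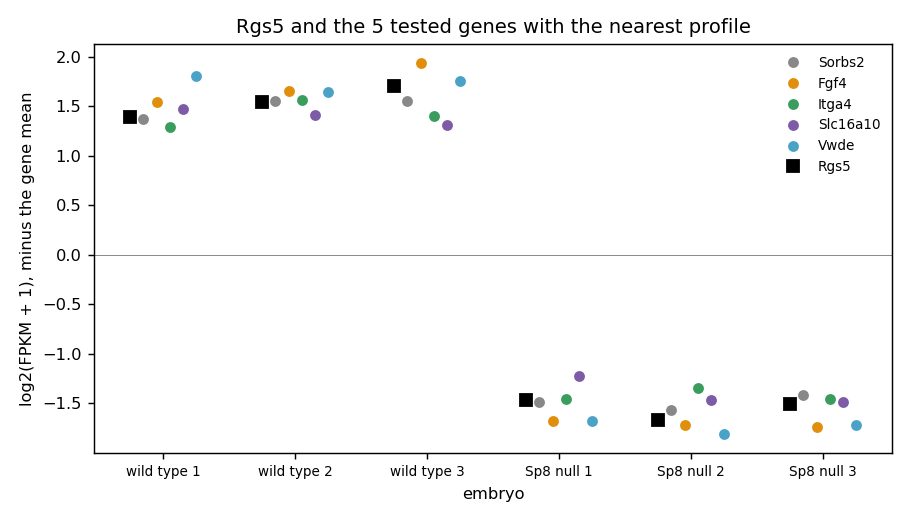
log2(FPKM + 1) minus the mean of each gene in each embryo, for Rgs5 (black squares) and the 5 tested genes nearest to it (coloured dots). Every gene is above 0 in the 3 wild-type embryos and below 0 in the 3 Sp8 null embryos, with Sorbs2 at a distance of 0.079 from Rgs5. This pattern follows from the choice of the genes.

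The genes around Rgs5 were compared next. Within 500 kb of Rgs5 the table held 17 other genes, 7 of them protein-coding, and 6 were listed at 0 in every library. Of the 6 that could be tested, 0 were called in limma, and 0 had an unadjusted p under 0.05 (smallest adjusted p = 0.454). Over all tested genes these shares were 6.83% and 24.0%, so 0 of 6 cannot set the neighbours apart from other genes. Nuf2, a kinetochore protein whose gene ends 124 kb before Rgs5, was at 20.6, 22.5 and 21.8 FPKM in WT embryos 1 to 3 and 18.3, 21.1 and 20.4 FPKM in null embryos 1 to 3. Hsd17b7, a steroid and cholesterol synthesis enzyme 254 kb away, was at 4.57 to 5.85 FPKM in WT and 4.27 to 5.40 FPKM in the null. Uap1 was at 9.90 to 10.3 FPKM in WT and 9.34 to 9.87 FPKM in the null, and Uhmk1 at 39.5 to 44.7 FPKM and 34.2 to 43.6 FPKM. Ddr2, a collagen receptor of mesenchyme, was at 0.826 to 2.18 FPKM in WT and at 1.34, 4.88 and 1.24 FPKM in null embryos 1 to 3. Its high value was in the library with the highest level of mesenchyme markers. Of the 11 neighbours with a value above 0, groups did not overlap for 2, Rgs4 and Uap1, both lower in the null, against 19.3% of all genes with a value above 0.

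**Figure D3:**
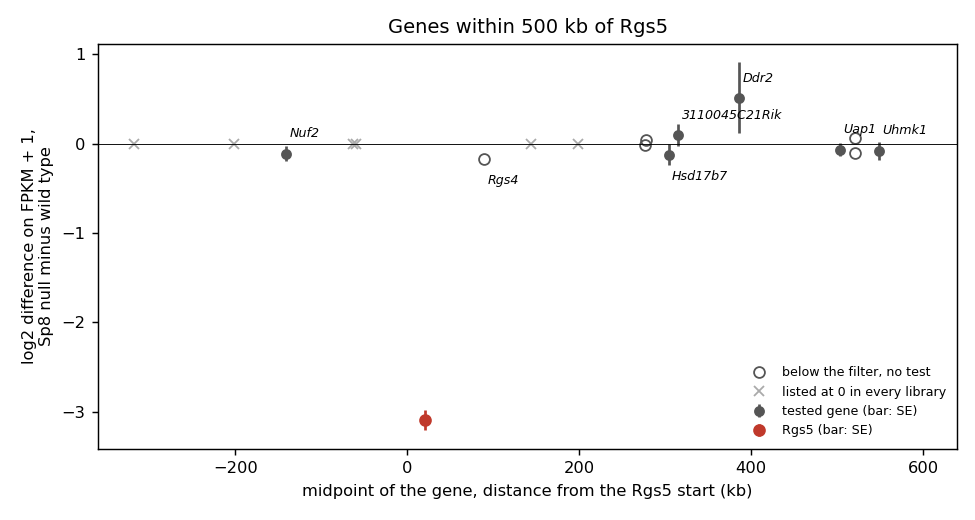
Difference between genotypes on the log2(FPKM + 1) scale (Sp8 null minus wild type) for Rgs5 and the 17 genes within 500 kb, against the distance of the midpoint of each gene from the Rgs5 start in kb; filled dots were tested (bars are SE), open circles were under the filter and crosses were listed at 0 everywhere. Rgs5 is at -3.09, and 0 of the 6 tested neighbours were called, against 6.83% of all tested genes.

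Since Rgs5 is a known marker of pericytes, 11 other markers of mural cells were read beside it. Their summed level was 14.02 to 19.6 FPKM in WT and 13.2 to 21.6 FPKM in the null. These sums overlapped, and Anpep alone held 4.05 to 9.14 FPKM of them. The part of mural cells in the Rgs5 difference was not tested. The pericyte channel genes Kcnj8 and Abcc9 reached at most 0.303 and 0.0339 FPKM in WT, in which Rgs5 was at 10.0 FPKM or more. In the null Kcnj8 was at 0.0112 to 0.155 FPKM and Abcc9 at 0.0194 to 0.0508 FPKM. Ndufa4l2 was at 0.338, 1.82 and 0.623 FPKM in WT embryos 1 to 3 and 0.765, 0.213 and 0.301 FPKM in null embryos 1 to 3. Tagln was at 0.292 to 0.620 FPKM in WT and 0.299 to 0.673 FPKM in the null. Cspg4 (NG2) was at 0.181 to 0.276 FPKM in WT and 0.181 to 0.346 FPKM in the null, and Higd1b was at most 0.141 FPKM in any library. Pdgfrb was at 2.40, 1.47 and 2.01 FPKM in WT and 1.80, 4.58 and 1.58 FPKM in the null. None of the 11 was at 0 in all libraries. Mean FPKM was lower in the null, the direction of Rgs5, for Kcnj8, Ndufa4l2, Acta2, Higd1b and Mcam. It was higher in the null for Pdgfrb, Cspg4, Abcc9, Notch3, Tagln and Anpep. Groups overlapped for all of the 11 but Mcam. Of the 5 that could be tested, Mcam, an adhesion molecule, fell from 3.42 ± 0.350 to 2.02 ± 0.285 FPKM (n = 3, SD), which on the log2 scale was -0.55 (SE 0.12; limma adjusted p = 0.0358) and the other 4, Pdgfrb, Notch3, Acta2 and Anpep, did not pass. Mcam moved with Rgs5, and its part in the difference was not tested.

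Markers of other cell types were low or varied by library. Endothelial markers (9 genes) summed to 2.05 to 3.08 FPKM in WT and 2.51 to 4.44 FPKM in the null. Egfl7 made up 1.82 to 2.84 FPKM of this in WT and 2.26 to 3.16 FPKM in the null, and Cdh5, Emcn, Cldn5 and Tie1 were listed at 0 in all WT libraries. In the null Cdh5 was at 0.0242 to 0.359 FPKM. Pecam1 was also higher in every null library (0.154 to 0.358 FPKM against 0.0466 to 0.123 FPKM in WT), opposite in direction to Rgs5. Groups did not overlap for 19.3% of all genes with a value above 0. Means of Kdr, Tek, Emcn, Cldn5, Tie1 and Egfl7 were higher in the null, with overlapping groups. The mean of Esam was lower there (0.0228 against 0.0551 FPKM in WT), also with overlap. All but Egfl7 were under 1 FPKM, and their part was not tested. Neural and neural crest markers (6 genes) summed to at most 1.61 FPKM, and macrophage markers (5 genes) to at most 2.88 FPKM. Mesenchyme markers (8 genes) summed to 28.8 to 57.8 FPKM in WT and 29.1 to 124 FPKM in the null, with the highest sum in null embryo 2. Pdgfra was the one mesenchyme marker whose groups did not overlap, at 23.8, 19.8 and 21.4 FPKM in WT embryos 1 to 3 and 6.37, 19.5 and 6.01 FPKM in null embryos 1 to 3. It did not pass (limma adjusted p = 0.120) but lay in the direction of Rgs5, and its part was not tested. On the log2 scale Prrx1, Twist1, Tbx5, Hand2, Col1a1 and Meox2 had higher means in the null, and Prrx2 a lower one. The groups of all these overlapped. Erythroid markers (6 genes) summed to 11.6 to 422 FPKM in WT and 61.9 to 161 FPKM in the null, with the highest sum in WT embryo 1. The log2 difference of Rgs5 was between -3.17 and -3.01 when any 1 library was left out, those 2 included. Since the groups did not overlap for Rgs5, leaving 1 library out cannot test cell content, whose part was not tested.

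**Figure D4:**
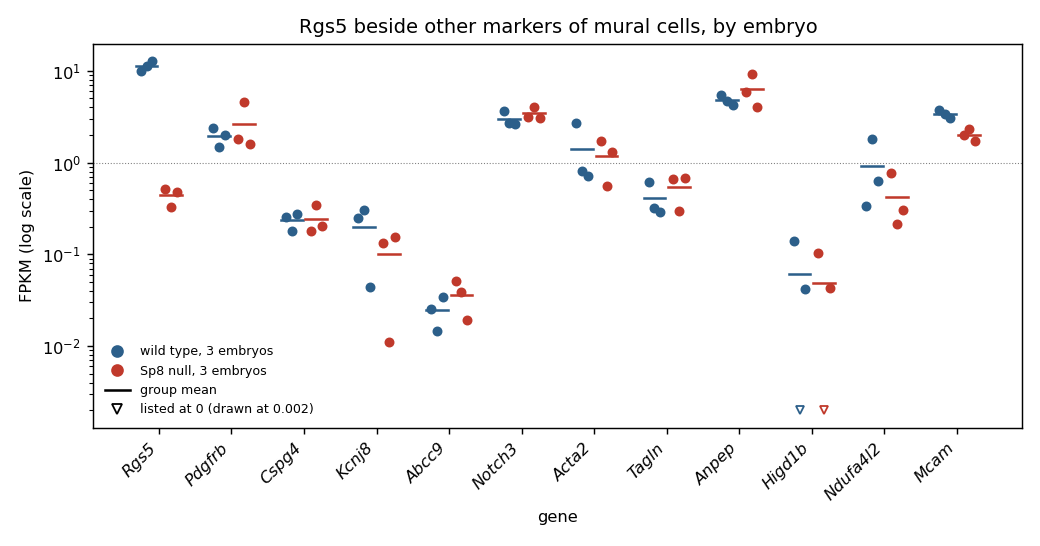
FPKM of Rgs5 and 11 other markers of mural cells on a log scale; dots are single embryos (blue wild type, red Sp8 null), lines are group means, open triangles are values listed at 0 and the dotted line is 1 FPKM. In wild type Rgs5 is at 10.0 to 12.7 FPKM, and Kcnj8 and Abcc9 are at most 0.303 and 0.0339 FPKM. In Sp8 null Kcnj8 and Abcc9 are at most 0.155 and 0.0508 FPKM. The part of mural cells was not tested.

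The other 11 Rgs genes, those left after the list around Rgs5 was chosen, were mostly low. Rgs1, Rgs13 and Rgs21 were listed at 0 in all libraries, and 7 others reached at most 0.301 FPKM. Only Rgs9, of the R7 subfamily known from retina and striatum, could be tested. It rose from 1.46 ± 0.391 FPKM in WT to 2.62 ± 0.0591 FPKM in the null (SD, n = 3), a log2 difference of 0.57 (SE 0.13; limma adjusted p = 0.0471). The single values were 1.91, 1.26 and 1.22 FPKM in WT embryos 1 to 3 and 2.67, 2.64 and 2.55 FPKM in null embryos 1 to 3, with no overlap. The call was near the threshold and was lost in 9 of 12 alternatives (adjusted p 0.0253 to 0.158). With 1 library left out it was kept only without WT embryo 1 (limma adjusted p = 0.0253), and was 0.0942 to 0.158 without any other. Its obligate partner Gnb5, the G beta subunit that stabilises R7 proteins, was at 3.58 to 4.97 FPKM in WT and 4.12 to 7.71 FPKM in the null and did not pass (a log2 difference of 0.47 ± 0.21, SE, with adjusted p = 0.236 in limma). The membrane anchor Rgs9bp was at 0.351 to 0.606 FPKM in WT and 0.257 to 0.387 FPKM in the null.

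Below the filter, Rgs8 and Rgs22 also had all null values above all WT values. Rgs8 was at 0.0667, 0.134 and 0.0668 FPKM in null embryos 1 to 3 and at 0.0409, 0.0382 and 0 FPKM in WT embryos 1 to 3. Rgs22 was at 0.257, 0.301 and 0.286 FPKM in the null and 0.211, 0.106 and 0.0562 FPKM in WT. Among the 8 of these genes with a value above 0, groups did not overlap for 3 (Rgs8, Rgs9 and Rgs22, all higher in the null), against 19.3% of the genes with any value above 0. Rgs8 and Rgs22 were named after their values were seen.

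The partners of Rgs proteins were read from lists of G-protein genes. These lists also held the other 11 Rgs genes and 9 other proteins with an RGS-like domain. The called genes Rgs9 and Snx13 came from those, so the shares given next are not for partners alone. Of 113 genes on 8 lists, 60 could be tested, and 6 of these were called (3 higher and 3 lower in the null), or 10.0% against 6.83% of all tested genes. Their median log2 fold change was -0.02, against -0.06 for all tested genes. An unadjusted p under 0.05 was found for 19 of the 60, against 24.0% of all tested genes (2914 of 12133). With any 1 library left out, 1 to 3 genes of these lists were called, and with another scaling between libraries 6 were (4 higher and 2 lower). Ackr3 was the one gene of the 6 that was called in each of 13 alternatives.

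Among the alpha subunits, the substrates of Rgs proteins, 11 of 16 were tested, and 2 fell and 0 rose (4 at an unadjusted p under 0.05 in limma). Gnai1, of the Gi class, fell from 11.2, 8.85 and 8.75 FPKM in WT embryos 1 to 3 to 5.48, 6.77 and 5.49 FPKM in null embryos 1 to 3 (a log2 difference of -0.61 ± 0.12, SE, with adjusted p = 0.0301 in limma). Gna12, an alpha subunit outside the Gi class, fell from 9.67 ± 0.672 to 7.36 ± 0.203 FPKM (n = 3, SD), which on the log2 scale was -0.35 (SE 0.08; limma adjusted p = 0.0472). The call of Gnai1 was lost in 8 of 13 alternatives and that of Gna12 in 11 of 13. With 1 library left out, Gnai1 passed only without null embryo 2 (limma adjusted p = 0.0359; 0.0542 to 0.0909 without any other), and Gna12 passed in no case (0.0729 to 0.146). The subunits present at higher levels did not pass: Gnas, the stimulatory subunit, was at 213 to 220 FPKM in WT and 190 to 228 FPKM in the null. Gnai3 was at 61.5 to 71.5 FPKM in WT and 59.7 to 72.2 FPKM in the null, Gnai2 at 30.4 to 35.4 and 34.4 to 38.8 FPKM, and Gnaq at 17.5 to 21.5 and 17.7 to 19.6 FPKM.

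Of the beta and gamma subunits 10 of 17 were tested and 0 were called in limma, with 2 at an unadjusted p under 0.05. Gnb2 had the smallest p, at 9.31 ± 0.621 FPKM in WT and 11.7 ± 0.780 FPKM in the null (a log2 difference of 0.30 ± 0.09, SE, with adjusted p = 0.0847 in limma). Of the adenylyl cyclases and phospholipases C beta, the enzymes downstream, 6 of 14 were tested, and 1 rose and 0 fell. Adcy1, a cyclase stimulated by calcium and calmodulin, rose from 1.17 ± 0.162 to 2.03 ± 0.165 FPKM (n = 3, SD), which on the log2 scale was 0.48 (SE 0.11; limma adjusted p = 0.0469). That call was lost in 10 of 12 alternatives, among them each fit without 1 library (limma adjusted p 0.0778 to 0.157). Plcb1 was at 2.01 to 2.46 FPKM in WT and 1.14 to 1.74 FPKM in the null and did not pass (limma adjusted p = 0.113).

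At the receptor level, 12 of 29 G-protein coupled receptors were tested, and 1 fell and 0 rose, with 5 at an unadjusted p under 0.05. Ackr3, an atypical receptor for the chemokine Cxcl12 that signals through arrestin rather than G proteins, was at 11.1, 14.3 and 14.9 FPKM in WT embryos 1 to 3. In null embryos 1 to 3 it was at 7.37, 5.87 and 6.17 FPKM, with no overlap (a log2 difference of -0.95 ± 0.13, SE, with adjusted p = 0.00745 in limma). The conventional Cxcl12 receptor Cxcr4 was at 0.898, 0.473 and 0.550 FPKM in WT and 1.17, 1.20 and 1.74 FPKM in the null, without overlap, but did not pass (a log2 difference of 0.53 ± 0.15, SE, with adjusted p = 0.0866 in limma). The thrombin receptor F2r was at 59.9 to 72.2 FPKM in WT and 46.3 to 58.4 FPKM in the null and did not pass (limma adjusted p = 0.105).

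The remaining lists held 1 call. Of 9 other proteins with an RGS-like domain all were tested, and Snx13, a sorting nexin with such a domain, rose from 8.10 ± 0.815 to 13.3 ± 1.89 FPKM (n = 3, SD), which on the log2 scale was 0.65 (SE 0.12; limma adjusted p = 0.0201). That call was lost in 5 of 13 alternatives (adjusted p 0.00844 to 0.0784), among them those without null embryo 2 (0.0550), WT embryo 1 (0.0647) and WT embryo 3 (0.0611). Of 8 receptor kinases and arrestins 5 were tested and 0 called in limma, with 2 at an unadjusted p under 0.05; Arrb1 had the smallest p (a log2 difference of -0.39 ± 0.14, SE, with adjusted p = 0.142 in limma). Of 9 other regulators of G proteins 6 were tested and 0 called, with 1 at an unadjusted p under 0.05; Pcp2 had the smallest p (a log2 difference of 0.35 ± 0.11, SE, with adjusted p = 0.115 in limma).

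**Figure D5:**
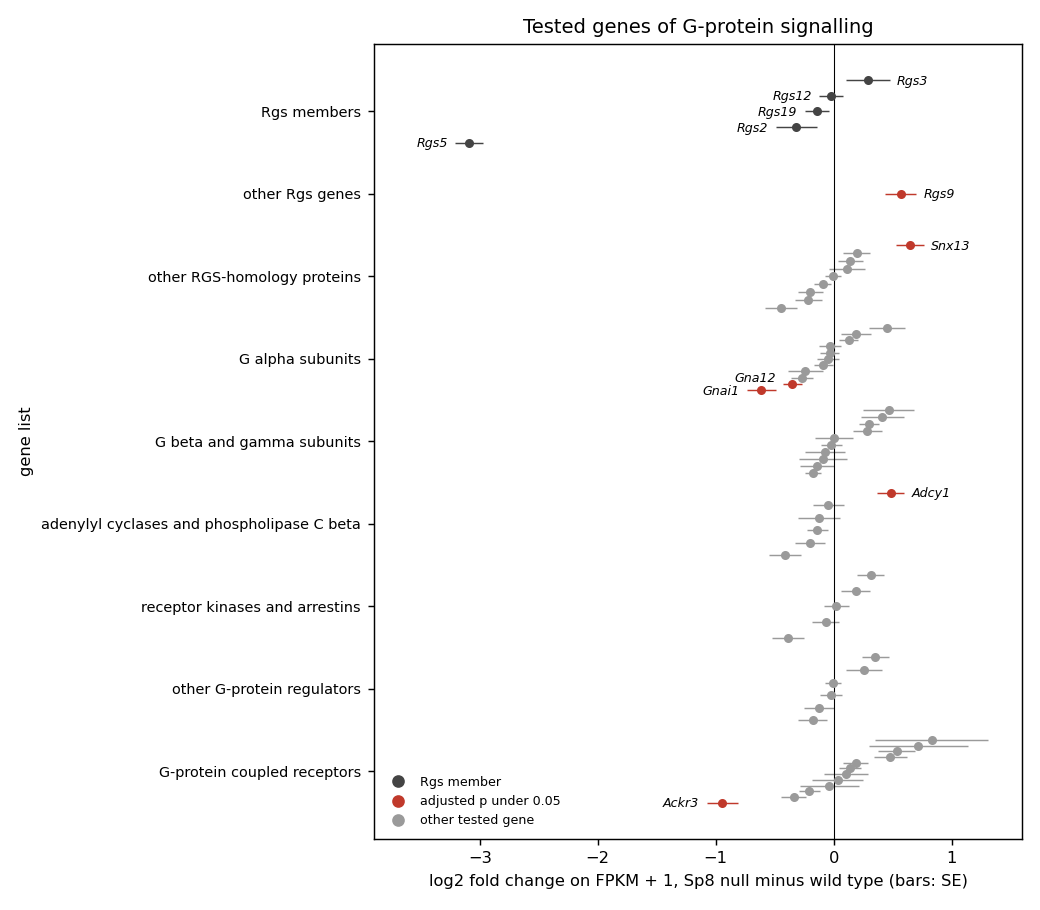
log2 fold change on FPKM + 1 (Sp8 null minus wild type; bars are SE) of each tested gene of the Rgs list and of 8 lists of G-protein signalling genes. Rgs5 stands at -3.09, the other Rgs genes of the list lie between -0.32 and 0.29, and the called genes of the other lists (red) lie between -0.95 and 0.65.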

How the data were processed

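Polyadenylated RNA of 6 libraries was sequenced. Per the submitters' processing notes the tools included TopHat2, Cufflinks and DESeq2 with genome build GRCm38, and the file's columns name Ensembl build 87; versions and the use of strand were not given in the sources used here. The authors deposited FPKM per library and, per the file headers, a mean signal per group, a signed fold change (treated as a score) and a p-value, which was not used. Genes that reached 1 FPKM in 3 or more libraries (12133 of 49452) were fitted as log2(FPKM + 1) with limma 3.58.1 (trend) in R 4.3.3, with genotype as the only term. P-values were two-sided and Benjamini-Hochberg adjusted over all tested genes, and genes under 0.05 are called. Code was tested on simulated data. The labels name no pairs of embryos, but the number that opens each column name (4 or 5) occurs in both genotypes. Its meaning is not given in the sources used here, and it was fitted as a covariate in an alternative. P-values measure the spread between embryos. Coordinates are from GENCODE M21 (GRCm38).

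The members and gene lists were chosen with earlier results of these data known. Named genes were the 10 Rgs genes with all their values, called genes and the smallest p of each G-protein list, the 5 profiles nearest to Rgs5, genes within 500 kb of it, and marker genes; others, including Gnb5, Rgs9bp, Rgs8, Rgs22, Cxcr4, F2r, Plcb1 and the abundant alpha subunits, were chosen after their values were seen. Alternatives were a pseudocount of 0.1, no filter, a mean of at least 5 FPKM, 2 scalings between libraries, the embryo number as a block, the number that opens each column name as a covariate, and each library left out with the tested genes kept.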

Additional observations from a re-analysis of the deposited data

How the results depend on the processing

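The log2 fold change of Rgs5 was -4.41 to -3.01 over 13 alternatives, with -4.41 on the other scale of the pseudocount of 0.1. In each, 1 of the 10 Rgs genes, Rgs5, was called. Since the list was chosen by this difference, neither is support for it. Rgs12 changed sign under median-of-ratios scaling (0.0428), upper-quartile scaling (0.0637), without Sp8 null embryo 1 (0.00611) and without WT embryo 2 (0.0537), ranged from -0.103 to 0.0537 with 1 library left out, and was not called in any. Over all genes 829 were called, and 342 when 27766 genes were fitted without a filter, 545 with the number that opens each sample's column name as a covariate, and 316 to 642 with 1 library left out, fits with fewer samples (394 without Sp8 null embryo 1, 408 without Sp8 null embryo 2, 445, 316 and 510 without WT embryos 1, 2 and 3). Of the 829 calls 204 were higher and 625 lower in the null; the split was 323 and 545 under median-of-ratios scaling and 363 and 507 under upper-quartile scaling. The 6 calls among G-protein genes became 1 with no filter, 2 with the covariate and 1 to 3 with 1 library left out. For single genes, 93 of 140 values kept direction and side of the threshold, 43 kept the direction but lost the call, and 4 changed direction, all of Rgs12. The cause was not tested.

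The embryo numbers in the titles did not pair the libraries: same-numbered libraries deviated from their group means with a correlation of -0.164, -0.145 and -0.0699. With the replicate block 328 genes and 1 G-protein gene (Ackr3) were called. Depth limits the genes under 1 FPKM, among them 5 of the 10 Rgs genes, which entered only the fit without a filter and were not called there.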
